A study of Danio rerio with 12 samples.

Results

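The proteasome gene family was followed in early zebrafish embryos, uninjected or with a knockdown of B1 sox genes. The members were all probe sets (groups of short probes that read 1 transcript) annotated to a single gene whose symbol starts with psma, psmb, psmc, psmd, psme, psmf or psmg. They are 61 of the 15502 probe sets tested, and they name 50 of the 8793 genes that a probe set with a single symbol represents. Each gene was read from 1 probe set, the one with the highest mean log2 signal over the 12 arrays, and 8 genes had more than 1. The family was chosen by symbol, so psmc3ip, a homologous recombination factor named for its binding to Psmc3, is counted although it is no proteasome subunit. The genes psma3, psma6b, psmb11a, psmb11b, psmd11a, psmd14, psme4a, psme4b and psmg4 of the zebrafish annotation were not analysed here.

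The proteasome is the protease that degrades proteins marked with ubiquitin chains. Its 20S core is a barrel in which outer rings of alpha subunits (psma genes) gate the entry and inner rings of beta subunits (psmb genes) carry the active sites. The 19S cap binds the barrel. The ATPases of its base (psmc genes) unfold the substrate, other base subunits bind ubiquitin, and its lid (most psmd genes) includes the enzyme that removes the chain. The PA28 activators (psme genes) open the barrel without the cap, psmf1 encodes the inhibitor PI31, and dedicated chaperones help to assemble the core (psmg genes) and the base (psmd5, psmd9 and psmd10). The oocyte supplies the egg with proteasomes and with their mRNAs, and the embryonic genome takes over transcription in the blastula, shortly before the earliest stage sampled here.

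Whole embryos of the TL strain were collected at 30% epiboly (30%E, late blastula), 75% epiboly (75%E, gastrula) and tailbud (TB, the end of gastrulation). WT embryos were uninjected. Quadruple knockdown (QKD) embryos had received morpholino antisense oligonucleotides that block the translation of sox2, sox3, sox19a and sox19b, genes of the B1 sox group. Each of the 6 groups had 2 arrays, each from RNA of 100 embryos, and the labels call the arrays of a group biological replicates. Whether these came from separate clutches is not given in the sources used here, so the p-values measure the spread between these samples. No array of embryos injected with control oligonucleotides was analysed here, so the effect of injection and that of the knockdown cannot be told apart. The study describes a slower epiboly in QKD embryos, marked mainly after the shield stage, which is later than 30%E. Whether WT and QKD samples were matched by age or by form is not given in the sources used here. The RNA is that of the whole embryo, so fewer cells of a type and less RNA per cell cannot be told apart.

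The signals are microarray intensities on a linear scale, and the precision of every value is limited by the number of arrays. The array medians lay between 73.3 and 76.1, and the upper quartiles between 272.01 and 318.7. Of the 50 genes, 42 were above the median of every array and 5 were below it on every array, namely psma6l, psmb8a, psmb9a, psmb12 and psmb13a. psmb9a was also below the lower quartile on all 12 arrays. Because morpholinos block translation, the arrays do not measure the knockdown: the transcript of sox2 was lower in QKD embryos at 30%E (log2 change -0.94) and higher at TB (2.14), and that of sox19b was higher at all 3 stages (1.77, 1.28 and 1.25).

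Most core and cap genes rose in WT embryos between 30%E and 75%E, whereas the activator psme3, the inhibitor psmf1 and the chaperone psmg1 fell. A gene is said to rise, fall or be called where the limma test over all 15502 probe sets gave a Benjamini-Hochberg adjusted p below 0.05 (two-sided, 2 arrays a group). From 30%E to 75%E, 29 of the 50 genes (58%) rose and 5 (10%) fell, while over all probe sets 30.2% rose and 27% fell. All 29 that rose were among the 42 genes above the median of every array. All probe sets include dim ones, where a change may not be measurable, so this and later shares compare sets of unlike signal. The median log2 change was 0.38 for the family and 0.09 for all probe sets. From 75%E to TB, 12 genes (24%) rose and none fell, against 14.1% and 13.7% of all probe sets, with medians of 0.12 and -0.03. By unadjusted p, 1 gene (psmb9a, 2% of the 50) was lower in limma from 75%E to TB, against 19% of all probe sets. The later count rests on single arrays: 6 genes rose without WT 75%E replicate 1 and 4 without WT TB replicate 1.

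**Figure D1:**
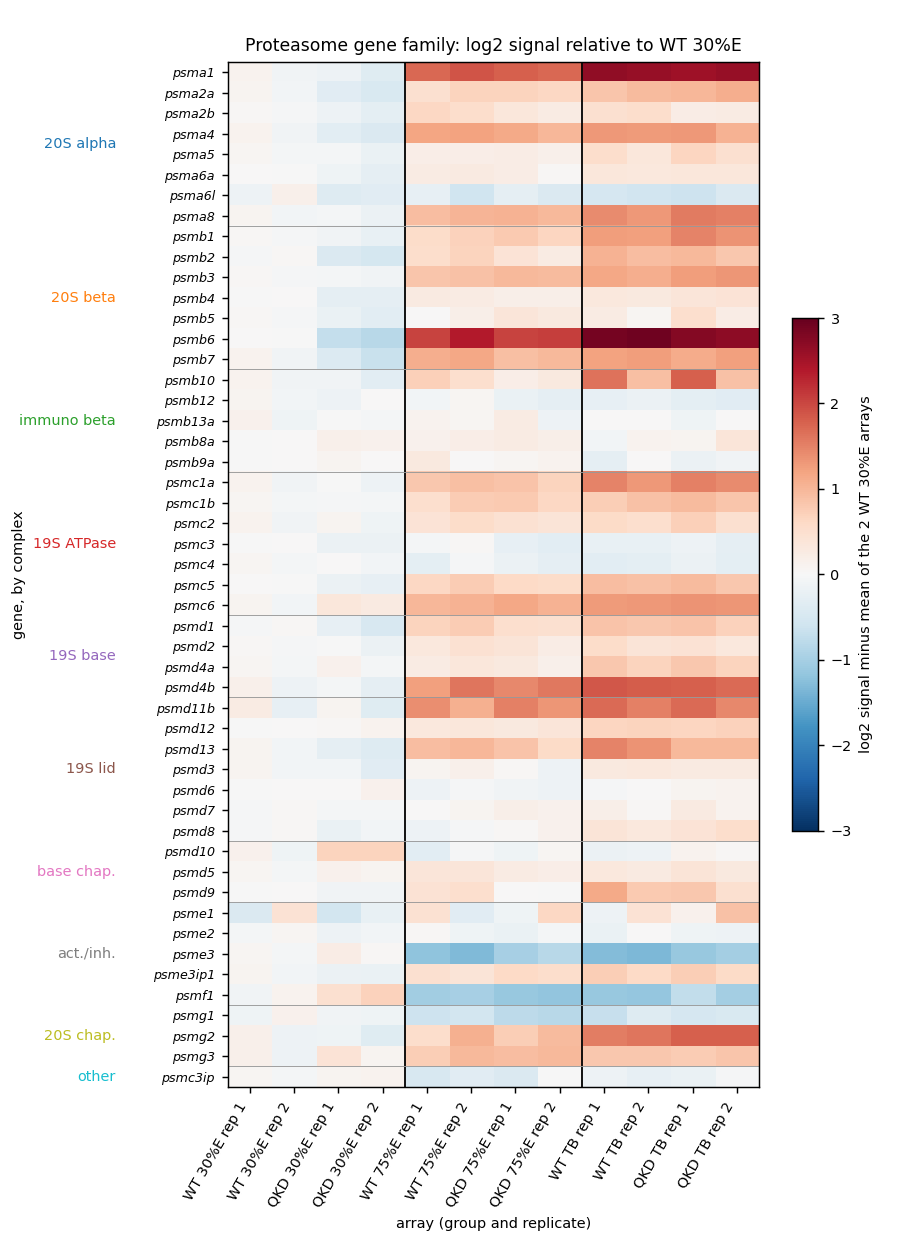
Log2 signal of each of the 50 genes (rows, grouped by complex) on each of the 12 arrays (columns), relative to the mean of the 2 WT 30%E arrays of that gene (colour, log2 units, limited to 3). psma1 and psmb6 turn deep red from 30%E to TB in WT and QKD embryos alike, psme3 and psmf1 turn blue, and the QKD 30%E columns are blue for psmb6, psmb7 and psmb2.

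Of the 8 alpha genes, which form the outer rings, 6 rose from 30%E to 75%E and the dim psma6l fell. psma1 read 286 and 251 on the WT arrays at 30%E, 890 and 987 at 75%E, and 1685 and 1650 at TB. No stage overlapped the next. Its log2 change was 1.81 ± 0.11 (SE, adjusted p = 1.06e-07) from 30%E to 75%E and 0.83 ± 0.11 (adjusted p = 2.81e-04) from 75%E to TB. psma4 rose 2.30-fold, and psma8 by 0.98 on the log2 scale. psma2a and psma2b encode versions of the same subunit and rose by 0.58 and 0.57. psma6a rose by 0.26, and psma5 had a change of 0.19 that was not called. psma6l read 50.2 and 62.9 at 30%E and 47.4 and 37.1 at 75%E, with a log2 change of -0.42 (adjusted p = 0.0256). Only psma1 and psma8 of this ring rose again from 75%E to TB, psma8 by 0.37.

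Of the 3 proteolytic beta subunits, 2 rose in WT embryos. psmb6 encodes the caspase-like site, psmb7 the trypsin-like site and psmb5 the chymotrypsin-like site. psmb6 read 267 and 264 at 30%E, 1077 and 1382 at 75%E, and 1941 and 2002 at TB, which gives the largest increase of the family from 30%E to 75%E (log2 change 2.20 ± 0.12, 4.60-fold, adjusted p = 3.59e-08) and a further 0.69 (adjusted p = 0.00131) from 75%E to TB. psmb7 read 1372 and 1203 at 30%E, 2733 and 2859 at 75%E, and 2979 and 3075 at TB. It therefore rose in the first interval (1.12 ± 0.11, adjusted p = 4.73e-06) and changed by 0.12 without a call in the second. psmb5 read 969 and 909 at 30%E, 939 and 1053 at 75%E, and 1117 and 978 at TB, so that its stages overlapped. Its changes of 0.08 and 0.07 were not called. The other 4 constitutive beta genes, psmb1, psmb2, psmb3 and psmb4, which have no proteolytic site, rose from 30%E to 75%E by 0.62, 0.60, 0.86 and 0.26. psmb1 and psmb2 rose again by 0.61 and 0.38 up to TB.

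The immunoproteasome genes replace the 3 active subunits in immune cells and after interferon. None of the 5 (psmb8a, psmb9a and psmb10, and the related fish genes psmb12 and psmb13a) was called in either interval in WT embryos. Of these, psmb13a, psmb8a, psmb12 and psmb9a follow each other with 0 protein-coding genes between neighbours in the RefSeq order of the assembly GRCz12tu, and these are also the dim ones. Over the 12 arrays psmb9a ranged from 15.6 to 22.9, psmb13a from 22.4 to 29.7, psmb12 from 26.3 to 35.1 and psmb8a from 30.2 to 41.2. At such signals a change may not have been measurable. psmb10 alone was above the median of all arrays, and its replicates disagreed at TB, where the WT arrays read 300.4 and 182 and the QKD arrays 339 and 179, the higher value being replicate 1 in both.

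Of the 7 ATPase genes of the cap, 5 rose from 30%E to 75%E. psmc6 read 566 and 510 at 30%E and 1071 and 1110 at 75%E, a change of 1.02 ± 0.10 (adjusted p = 3.05e-06). The others that rose were psmc1a (0.86), psmc5 (0.69), psmc1b (0.63) and psmc2 (0.48). The remaining ATPases did not follow, with changes of -0.01 for psmc3 and -0.17 for psmc4, neither of them called. psmc1a rose once more up to TB (0.54). The 4 other base genes all rose in the first interval, and the copies of the ubiquitin receptor Rpn10 did so unequally. psmd4b read 187 and 150 at 30%E and 395 and 509 at 75%E (1.42 ± 0.14, adjusted p = 5.31e-06), while psmd4a read 296 and 271, then 337 and 359 (0.30 ± 0.11, adjusted p = 0.0408). The scaffold genes psmd1 and psmd2 rose by 0.71 and 0.39.

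Of the 7 lid genes, 3 rose from 30%E to 75%E. psmd11b read 149 and 105 at 30%E and 332 and 264 at 75%E (1.24 ± 0.20), psmd13 rose by 0.95 and psmd12 by 0.33. The other scaffold genes of the lid had changes of 0.11 (psmd3), 0.05 (psmd7), -0.09 (psmd6) and -0.09 (psmd8), none of them called. psmd8 was late: it read 993 and 1064 at 75%E and 1433 and 1359 at TB, a rise of 0.44 (adjusted p = 0.00662), and psmd12 and psmd13 also rose in that interval, by 0.33 and 0.46. psmd7, which encodes the lid partner of the deubiquitinase Psmd14, stayed between 838 and 1057 over the 12 arrays.

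The genes that regulate and assemble the proteasome included most of those that fell. psme3 encodes PA28gamma, the nuclear activator, and read 1972 and 1812 in WT embryos at 30%E, 818 and 758 at 75%E, and 764 and 737 at TB. It thus fell before 75%E and not detectably after it (-1.26 ± 0.11, adjusted p = 1.27e-06, then -0.07). psmf1 read 184 and 211, then 95.5 and 98.2, then 90.3 and 87.8, a change of -1.03 ± 0.12 (adjusted p = 1.96e-05) over the first interval. Its other probe set also fell (-0.55, adjusted p = 0.00273). The core chaperone gene psmg1 read 264 and 318, then 187 and 198, a change of -0.59 ± 0.12 (adjusted p = 0.0014), which its other probe set shared at -0.83 (adjusted p = 1.77e-04). Psmg1 acts as a pair with Psmg2, whose gene moved the other way: psmg2 read 130 and 104 at 30%E, 168 and 243 at 75%E, and 336 and 357 at TB, with changes of 0.80 ± 0.17 (adjusted p = 0.00188) and 0.78 (adjusted p = 0.00612). psmg3 rose by 0.86 and then changed by -0.04.

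Among the base chaperones, psmd9 rose in both intervals (0.47 and 0.50). Its other probe set was called in the second only (0.33, adjusted p = 0.104, then 0.53, adjusted p = 0.0301). psmd5 rose in the first interval (0.36), and psmd10, which encodes gankyrin, had a change of -0.18 that was not called. psme3ip1, which encodes a binding partner of PA28gamma, rose by 0.44, while none of its 3 other probe sets was called and their changes of 0.22, -0.29 and -0.14 disagreed in direction. The interferon-responsive activator genes psme1 and psme2 were near the array median. psme1 had the widest replicate spread of the family, with 48.5 and 88.4 at 30%E and 89.4 and 52.1 at 75%E in WT embryos, and changes of 0.06 and 0.09. psme2 stayed between 70.6 and 84.4 over the 12 arrays. psmc3ip read 87.9 and 79.9 at 30%E and 60.3 and 65.9 at 75%E (-0.41, adjusted p = 0.0225). Its other probe set read 12.8 to 16.8 over the 12 arrays, below the lower quartile of each. That probe set was called in the opposite direction over the same interval (0.29, limma adjusted p = 0.0225). At such signals a change may not have been measurable, so the direction of psmc3ip is uncertain. Both of these probe sets, and those shown for psmc1b and psmd1, are of designs that may also match other transcripts.

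**Figure D2:**
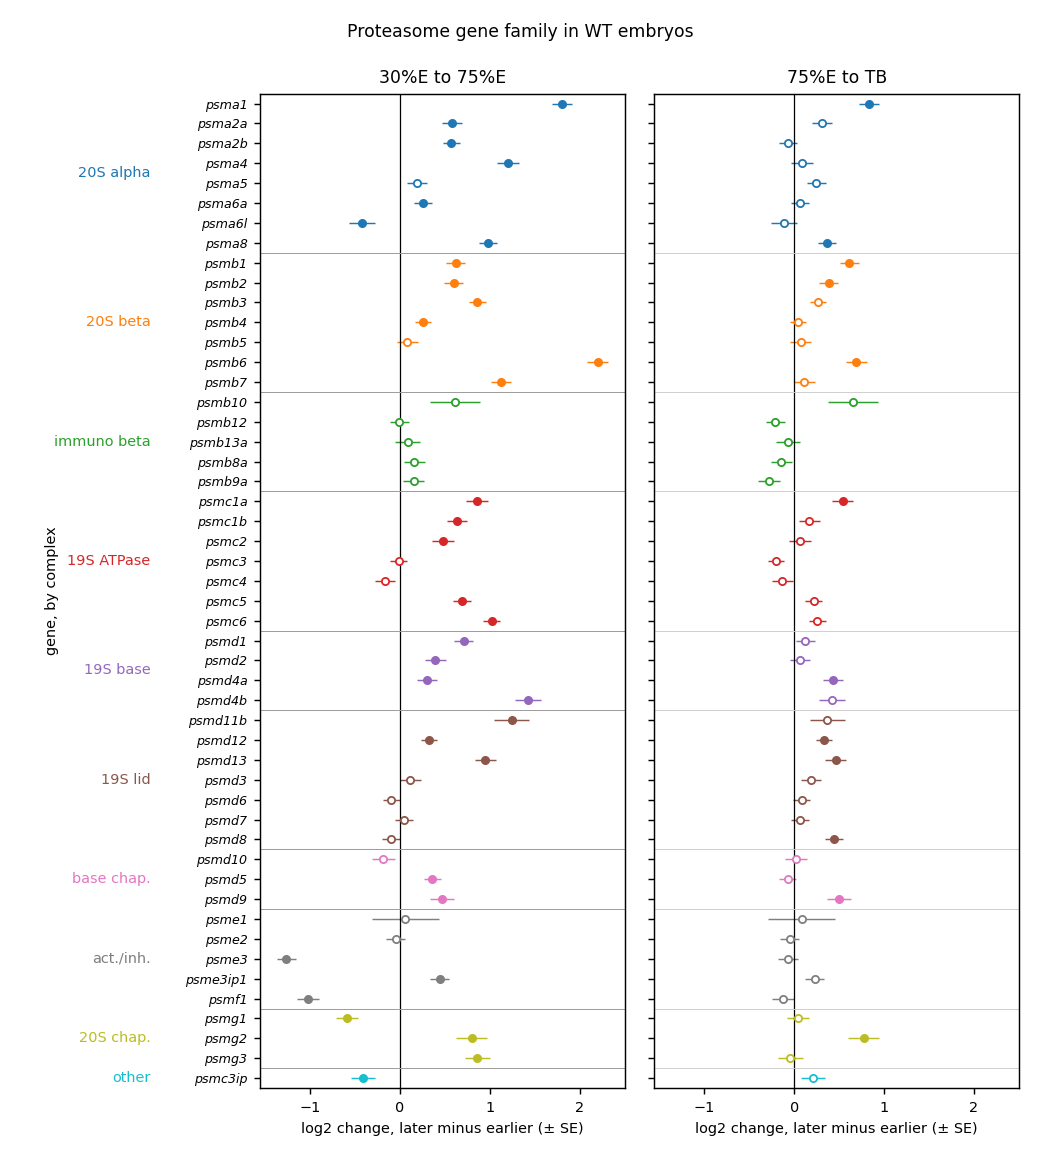
Log2 change in WT embryos (x axis, later minus earlier stage, points with SE) of each gene (y axis, grouped by complex) from 30%E to 75%E and from 75%E to TB, 2 arrays a group, with filled points where the adjusted p was below 0.05. In the first interval 29 filled points lie to the right of 0 and 5 to the left, and in the second 12 lie to the right.

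The course in QKD embryos had similar counts. From 30%E to 75%E, 28 genes (56%) rose and 4 (8%) fell (psmd10, psme3, psmf1 and psmg1), against 30.9% and 29.4% of all probe sets. From 75%E to TB, 16 genes (32%) rose and none fell, against 12.1% and 10.2%, and by unadjusted p none was lower in limma either, against 15.9%. That later count was 9 without either QKD 75%E array and 8 without QKD TB replicate 1. The QKD course starts from other values at 30%E, where the difference between QKD and WT embryos was measured directly.

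At 30%E, 3 beta genes of the core were lower in QKD than in WT embryos, and the chaperone gene psmd10 and the inhibitor gene psmf1 were higher. These 3 are 6% of the 50 genes, against 2.92% of all probe sets called lower, and the 2 called higher are 4%, against 5.14%. psmb6 read 267 and 264 on the WT arrays but 161 and 149 on the QKD arrays. The groups lie well apart, and the change was -0.78 ± 0.12 (1.71-fold lower, adjusted p = 0.00186). psmb7 read 1372 and 1203 on the WT arrays but 963 and 814 on the QKD arrays (-0.54 ± 0.11, 1.45-fold lower, adjusted p = 0.0124). psmb2, a beta subunit without a proteolytic site, read 564 and 584 on the WT arrays but 424 and 399.95 on the QKD arrays (-0.48 ± 0.11, 1.39-fold lower, adjusted p = 0.0189). Both QKD arrays were below both WT arrays for each of these. The third active-site gene, psmb5, read 969 and 909 on the WT arrays but 812 and 757 on the QKD arrays, which do not overlap, but its change of -0.26 ± 0.12 was not called (adjusted p = 0.286).

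For both higher genes, the QKD arrays at 30%E were above the arrays of every other group. psmd10 read 405 and 340 in WT embryos at 30%E and 593 on both QKD arrays (0.68 ± 0.12, 1.60-fold higher, adjusted p = 0.00542), while all its values at 75%E and TB, WT or QKD, lay between 297 and 399. psmf1 read 184 and 211 on the WT arrays but 273 and 319 on the QKD arrays (0.58 ± 0.12, 1.50-fold higher, adjusted p = 0.0128). Its other probe set had a change of 0.45 that was not called (adjusted p = 0.0505). In WT embryos psmf1 fell from 30%E to 75%E, while the change of psmd10 was not called.

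**Figure D3:**
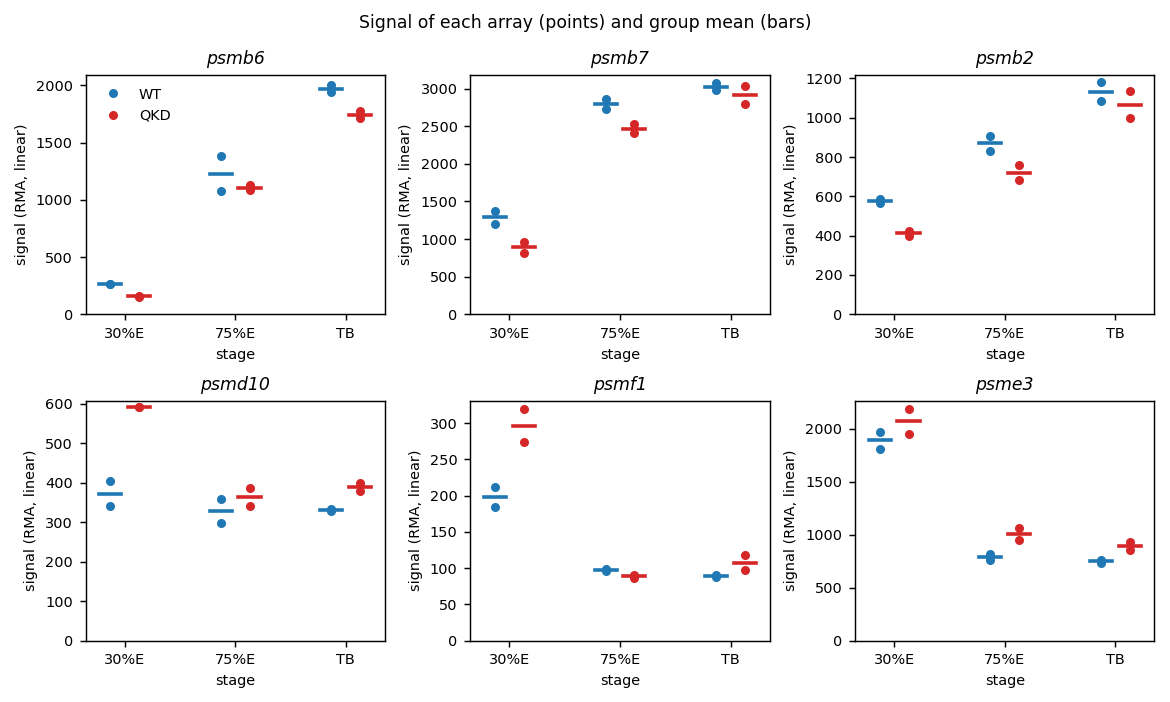
Linear signal (y axis, from 0) of psmb6, psmb7, psmb2, psmd10, psmf1 and psme3 at each stage (x axis) in WT (blue) and QKD (red) embryos, each point an array and each bar the mean of 2. At 30%E the QKD points of psmb6, psmb7 and psmb2 lie below the WT points and those of psmd10 and psmf1 above them. For psme3 the 2 groups overlap at 30%E and the QKD points lie above the WT points at 75%E and TB.

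The calls at 30%E differed in how far they rested on single arrays. That of psmb6 was kept under all 20 alternative limma fits tried, 12 of them the omission of 1 array, with log2 changes from -0.83 to -0.72. Among the omissions, only those of the 4 arrays at 30%E could move this log2 change. The others altered only the shared spread and the adjustment. The call of psmb6 was not kept where a log2 change of over 1 or a ratio of linear signals over 2 was required. Nor was it kept by a Student's t-test on the linear signals after Benjamini-Hochberg adjustment. psmb2 was not called when any 1 of the 4 arrays at 30%E was left out (adjusted p from 0.0577 to 0.155). psmb7 and psmf1 were not called without QKD 30%E replicate 2 (adjusted p = 0.145 and 0.143) or without WT 30%E replicate 1 (0.129 for both), nor in a fit of the 30%E arrays alone (0.0673 and 0.0505), and psmd10 was not called without WT 30%E replicate 2 (0.0597). The count of lower genes was 1 without QKD 30%E replicate 2 or WT 30%E replicate 1, and 2 without either of the other 30%E arrays. The count of higher genes was 1 without any 30%E array other than QKD 30%E replicate 1. WT and QKD arrays of the same replicate number deviated together within a stage. With the replicate number as a block 6 genes (12%) were lower and 3 (6%) higher at 30%E, against 5.23% and 9.02% of all probe sets. The genes added were psma2a (-0.39), psma4 (-0.38) and psmd1 (-0.36), and, higher, the ATPase gene psmc6 (0.31), with blocked adjusted p of 0.019, 0.0244, 0.0362 and 0.0453.

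Over all genes of the family, the called ones included, the differences at 30%E leaned to one side. Of the 50 genes, 38 (76%) had a change below 0, against 55.7% of all probe sets, and the median was -0.13 against -0.03. The lean was not particular to the family. Of lists read below, 70 of 71 ribosomal protein genes, 9 of 10 proteasome partners and 14 of 22 ubiquitin and shuttle genes were below 0. In the p53 list 6 of 14 were, and in the heat shock list 10 of 23. In 24 genes (48%) both QKD arrays lay below both WT arrays, against 26.9% of all probe sets, and in 7 genes (14%) both lay above, against 22.7%. All 8 alpha genes and all 7 constitutive beta genes were below 0, with medians of -0.24 and -0.26. The ATPases had a median of -0.04 and included psmc6, which read 566 and 510 on the WT arrays but 683 and 649 on the QKD arrays. In the lid the median was -0.13 and psmd13 had the lowest value (-0.33), and among the core chaperones psmg2 (-0.26) and psmg3 (0.25) lay on opposite sides. The 5 immunoproteasome and related genes ranged from -0.21 (psmb10) to 0.14 (psmb8a), and psme1 had a change of -0.40 with a SE of 0.37.

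**Figure D4:**
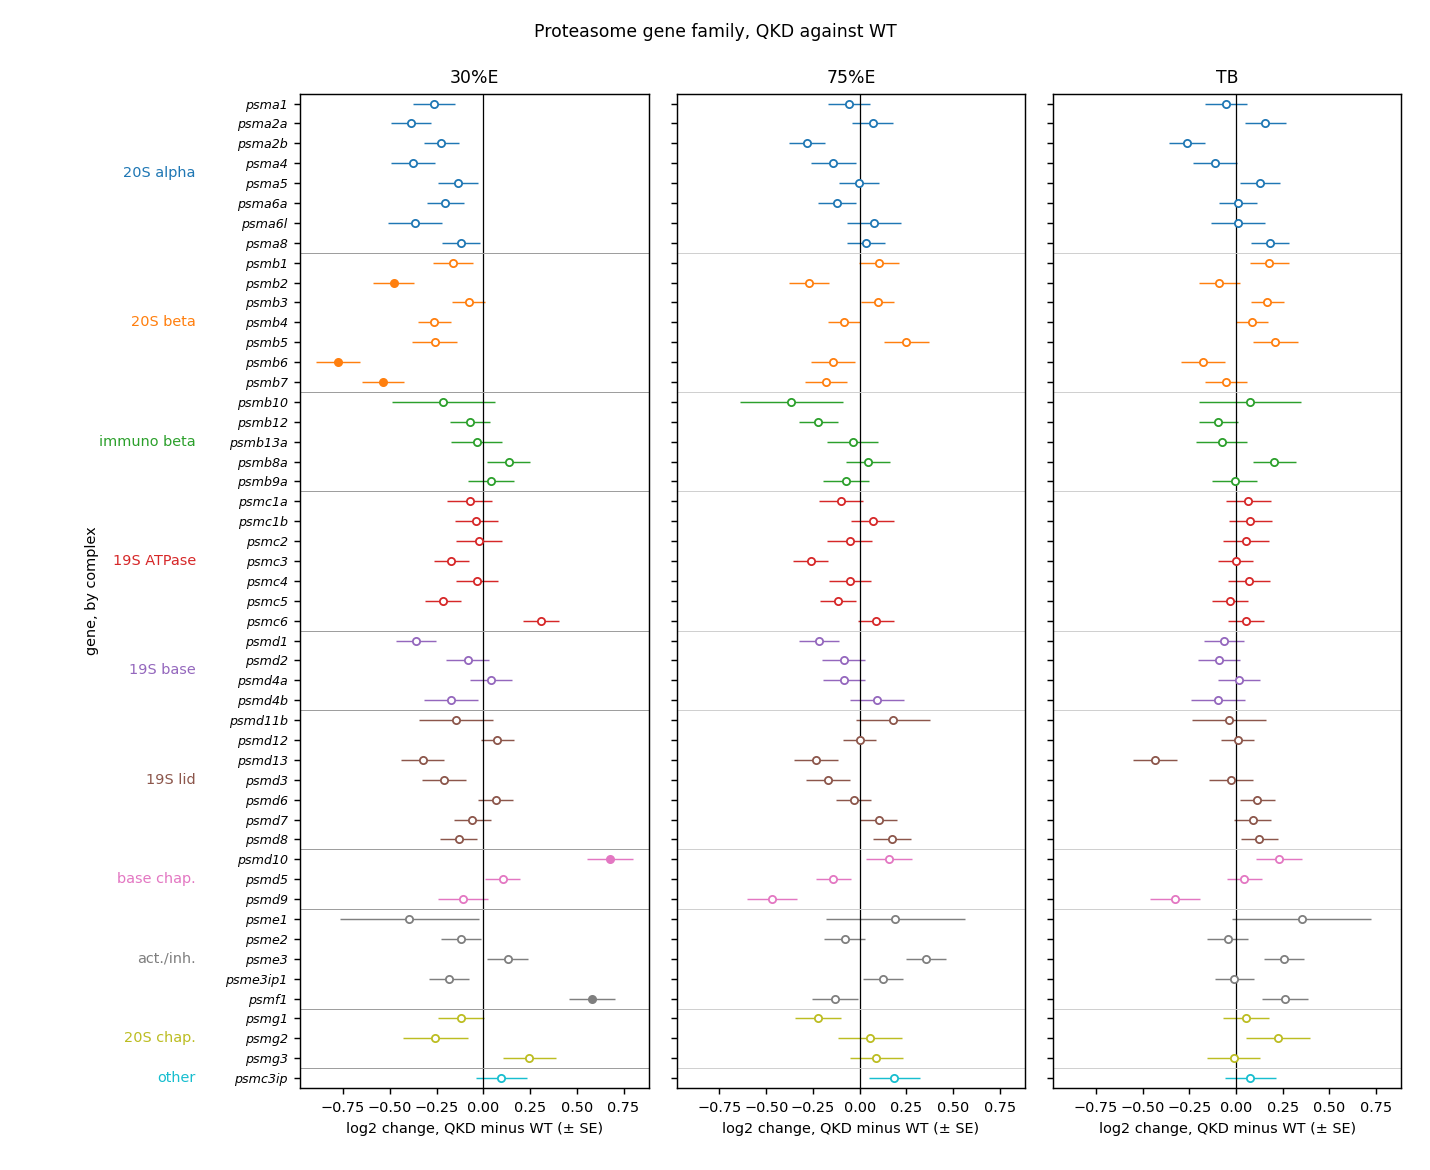
Log2 change of QKD against WT embryos (x axis, points with SE) of each gene (y axis, grouped by complex) at 30%E, 75%E and TB, 2 arrays a group, with filled points where the adjusted p was below 0.05. The 5 filled points, psmb2, psmb6, psmb7, psmd10 and psmf1, are all at 30%E, and the points of the 8 alpha and 7 constitutive beta genes lie to the left of 0 at that stage.

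At 75%E no gene of the family was called by limma, against 3.9% of all probe sets called lower and 4.49% called higher. By unadjusted p 4 genes (8%) were lower and 1 (2%) higher, against 10.4% and 10.9%. A Student's t-test on the linear signals is named in notes to the study's gene lists. At p below 0.05 it gave 6 lower (12%) and 0 higher, against 5.94% and 5.59%. The largest change was that of psmd9, which encodes a base chaperone and read 326 and 340 on the WT arrays but 242 and 239 on the QKD arrays (-0.47 ± 0.13, adjusted p = 0.0539). Its values do not overlap, but the change was not called, nor was that of its other probe set (-0.44, adjusted p = 0.129). psmb10 read 160 and 138 on the WT arrays but 112 and 118 on the QKD arrays (-0.37 ± 0.27). psme3 read 818 and 758 on the WT arrays but 953 and 1065 on the QKD arrays (0.36 ± 0.11, adjusted p = 0.0701), which again do not overlap. psma2b had a change of -0.28, from 1226 and 1154 to 1010 and 948, and psmb2 of -0.27, from 830 and 909 to 760 and 681.

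With the replicate block, psmd9, psmb10 and psma2b were lower (adjusted p = 0.00455, 0.0341 and 0.0464) and psme3 was higher (0.0343) at 75%E. These are 3 genes (6%) and 1 gene (2%), against 7.8% and 9.11% of all probe sets. The arrays did not overlap in 17 genes that were lower (34%, against 25.1%) and 6 that were higher (12%, against 21.7%). The family's median change was -0.05, against -0.02 over all probe sets. Of the genes called at 30%E, psmb6 read 1077 and 1382 on the WT arrays but 1085 and 1126 on the QKD arrays and overlapped. psmb7 (-0.18), psmb2 (-0.27) and psmf1 (-0.13) were still lower on both QKD arrays than on both WT arrays. psmd10 had a change of 0.16 with overlap. None of these genes was called at 75%E.

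At TB again no gene was called by limma, against 3.21% of all probe sets called lower and 3.15% called higher. By unadjusted p 3 genes (6%) were lower and 1 (2%) was higher, against 8.12% and 9.75%. That t-test gave 3 lower (6%) and 2 higher (4%), against 6.06% and 6.8%. The lid gene psmd13 read 1427 and 1297 on the WT arrays but 1009 and 1006 on the QKD arrays (-0.43 ± 0.12, adjusted p = 0.0514), without overlap, and it had been lower without a call at both earlier stages too (-0.33 and -0.23). psmd9 read 531 and 416 on the WT arrays but 419 and 335 on the QKD arrays (-0.33 ± 0.13), which overlap. The other probe set of psmd9 had a change of -0.35 (adjusted p = 0.287), and psma2b one of -0.26. With the replicate block, psmd13 and psmd9 (4% of the 50) were lower (adjusted p = 0.0224 and 0.0306) and no gene was higher, against 6.34% and 7.26% of all probe sets.

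The family's median at TB was 0.03, against 0.01 over all probe sets, and the arrays did not overlap in 7 genes that were lower (14%, against 21.5%) and 13 that were higher (26%, against 25.7%). The largest positive changes were those of psme1 (0.35 ± 0.37), whose QKD arrays read 71.4 and 119.7 and overlap the WT values of 59.03 and 88.8, of psmf1 (0.26) and of psme3 (0.26). psmb6 read 1941 and 2002 on the WT arrays but 1776 and 1713 on the QKD arrays, a change of -0.18 without overlap or call. psma2b was below WT on both QKD arrays at all 3 stages, with changes of -0.22, -0.28 and -0.26.

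Whether the QKD effect differed between stages was tested as an interaction. From 30%E to 75%E it differed for psmf1 (2% of the 50), with a difference of effects of -0.71 ± 0.17 (adjusted p = 0.0425), while 4.56% of all probe sets were called in either direction. That call was lost under 11 of 19 alternative fits, 9 of them the omission of 1 array. The difference lay between -0.83 and -0.60 over the 12 omissions. psmb6 had a difference of 0.63 ± 0.17 in the opposite direction that was not called (adjusted p = 0.0585). With the replicate block, psmf1 and psmd10 (4%) were called with a fall of the effect (adjusted p = 0.00785 and 0.0342). psmb6, psmb5 and psma2a (6%) were called with a rise (0.0181, 0.0323 and 0.049). Over all probe sets 12.1% were called in either direction. From 75%E to TB no gene was called in limma with or without the block, against 2.86% and 0.677%. By unadjusted p only psmf1, 2% of the 50, was (0.39), against 9.66%. For the others a p above the threshold does not show that the effect was the same at each stage.

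Genes that work with the proteasome but lie outside the symbol rule were read from lists chosen with earlier results of these data known. Of 10 partners, among them the core maturation factor pomp, the ubiquitin receptor adrm1 and the small lid subunit sem1, none was called in QKD embryos at any stage. In WT embryos 7 of these 10 rose from 30%E to 75%E, including adrm1 (0.90), pomp (0.69) and sem1 (0.64), and ecpas, which encodes a scaffold that binds proteasomes, fell (-1.25). Over all probe sets 30.2% rose and 27% fell in that interval. Of 22 ubiquitin and shuttle genes none was called in QKD embryos either, and in WT embryos 8 rose and 8 fell from 30%E to 75%E. In QKD embryos 2.92% of all probe sets were called lower and 5.14% higher at 30%E. The shares were 3.9% and 4.49% at 75%E, and 3.21% and 3.15% at TB. In lists this short, a count of 0 is near these shares and does not show that the genes were unaffected. This list also holds rps27.1, a ribosomal protein gene, which is among those that rose (0.90). The list included opposite changes of gene copies, with log2 changes of 0.61 for cul1a and -1.76 for cul1b, both scaffolds of SCF ubiquitin ligases. Their medians in QKD embryos at 30%E were -0.13 for the partners and -0.04 for the ubiquitin and shuttle genes.

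Markers of cell types, and genes of the p53 and heat shock responses, also differed between WT and QKD embryos. Injection and knockdown cannot be told apart in these differences. For comparison, 2.92% of all probe sets were called lower and 5.14% higher at 30%E. At 30%E the enveloping layer list (9 genes, among them the keratin genes krt5 and krt17) had 2 genes called lower and all 9 below 0, and its summed signal was 9272 to 10836 in WT and 6240 to 8545 in QKD embryos. The mesoderm and endoderm list (10 genes) had 3 called lower and 1 higher, with sums of 7427 to 8258 and 5737 to 6354. The list drawn up for maternal transcripts that are cleared (11 genes) had 2 called higher, btg4 and buc, with sums of 24801 to 26836 and 29842 to 33218. In WT embryos 9 of these 11 fell in each interval, but h1-10, which is in the sums, rose (0.60 and 0.89). The neural list (11 genes, with the targeted sox2 and sox3) had 3 called lower, sox2 among them, and 1 higher, sox3 (0.65). The neural sums were higher in QKD embryos, with 7444 to 7609 in WT and 9322 to 9393 in QKD embryos. These sums include sox2 and sox3, while 7 of the 11 genes had a log2 change below 0 (median -0.10), against 55.7% of all probe sets. The yolk syncytial layer list (10 genes) had 1 called lower, slc26a1, with sums of 6937 to 7643 in WT and 6661 to 7842 in QKD embryos. The germ cell list (8 genes) had 1 called higher, dazl. The part of these differences in the changes of psmb2, psmb6, psmb7, psmd10 and psmf1 was not tested.

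At 75%E and TB the enveloping layer list had no gene called, with log2 changes of -0.88 and -0.93 for krt17 after -1.06 at 30%E. Its sums were 31070 to 33490 in WT and 31118 to 33187 in QKD embryos at 75%E, and 36115 to 36540 and 34012 to 34188 at TB. For comparison, 3.9% of all probe sets were called lower and 4.49% higher at 75%E, and 3.21% and 3.15% at TB. The neural list had 5 genes lower and 2 higher at 75%E and 6 lower and 2 higher at TB. The 2 higher genes were the targeted sox2 and sox3 at both stages. The neural sums, which include sox2 and sox3, were 8177 to 8524 in WT and 14138 to 15040 in QKD embryos at 75%E, and 9597 to 9692 and 14341 to 15201.5 at TB. Most single genes went the other way. At each of these stages 7 of the 11 had a log2 change below 0, against 53.6% and 46.7% of all probe sets. The medians were -0.29 and -0.98, and her3 was lowest (-4.97 and -4.91). The mesoderm and endoderm list had 2 and then 1 higher. Its sums were 9547 to 10278 in WT and 11200 to 11818 in QKD embryos at 75%E, and 7653 to 8287 and 9229 to 9498 at TB. The yolk syncytial layer list had 1 lower and 1 higher at 75%E and 1 lower at TB, with 9 of its 10 genes below 0 at each of these stages. Its sums were 14318 to 14380 in WT and 12816 to 13522 in QKD embryos at 75%E, and 16264 to 16326 and 13797 to 14644 at TB. No gene of the germ cell and maternal lists was called at these stages. The list of genes of the p53 response, which injected morpholinos are known to raise, had 1, 2 and 5 of 14 genes higher in QKD embryos at 30%E, 75%E and TB, with medians of 0.03, 0.15 and 0.32. Its sums were 7510 to 8082 in WT and 7710 to 7914 in QKD embryos at 30%E, 7065 to 7616 and 8050.5 to 8392 at 75%E, and 5739 to 5889 and 7765 to 8561 at TB. Of 23 heat shock and unfolded protein response genes 1 was lower at 30%E, and 3 and 2 were higher at 75%E and TB, among them hspd1 at both later stages (0.45 and 0.63). The part of these changes in the values of the proteasome genes was not tested.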

How the data were processed

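The authors processed the 12 arrays with the RMA program, which subtracts background, equalises the arrays' distributions and gives 1 value per probe set, and deposited linear intensities. The RMA version is not given in the sources used here, and 0 columns were left unused. After 115 control probe sets were removed, log2 intensities of 15502 probe sets were fitted with limma 3.58.1 in R 4.3.3 (a mean for each of 6 groups, eBayes, 6 residual and 5.112 prior degrees of freedom, Benjamini-Hochberg over all probe sets), and summarised with pandas 2.3.3. Symbols came from the platform annotation, in which 10795 probe sets had 1 gene, 135 several and 4572 none. Where a probe set had 1 gene, its symbol was updated to the RefSeq symbol of that gene, and members had to match by both symbols. Probe sets with several genes were given no symbol. The members and lists were chosen with earlier results of these data known.

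Genes were named with values where called in QKD against WT embryos with groups that did not overlap, where among the 5 largest changes of such a comparison or the 3 largest of a WT interval in each direction, where called in an interaction, and where they encode active sites, activators or chaperones. Naming the dimmest and brightest gene of each complex, also part of that rule, was not done, since signals of different probe sets cannot be compared. Other members were named after their values were seen.

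Replicate numbers are shared by the labels of WT and QKD arrays. Deviations from the group means of same-numbered arrays correlated within a stage (r = 0.615, 0.443 and 0.488 at 30%E, 75%E and TB, over all probe sets) and between -0.0835 and 0.183 across stages, so the block was the replicate number within each stage. It does not bear on the changes between stages. Scaling, filter, variance, block, probe set choice, threshold, a t-test named in notes to the study's gene lists, but not in its Methods, and the omission of each array were varied. The fit was tested on simulated data.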

Additional observations from a re-analysis of the deposited data

Results flagged for a closer look

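The QKD effect on psmf1, which encodes the proteasome inhibitor PI31, differed between 30%E and 75%E by a test of the difference itself (-0.71 on the log2 scale, limma adjusted p = 0.0425). Its effect was 0.58 at 30%E, with 184 and 211 on the WT arrays and 273 and 319 on the QKD arrays, and -0.13 at 75%E, with 95.5 and 98.2 against 90.5 and 86.3. Both QKD arrays were above WT at the earlier stage and below it at the later stage. Leaving out any array of 30%E or 75%E other than QKD 30%E replicate 1, or either WT array of TB, ended the call, with adjusted p from 0.0606 to 0.172, and so did a variance trend (0.0526) and the mean over both of its probe sets (-0.59, adjusted p = 0.0592). The second probe set of psmf1 on its own gave an adjusted p of 0.202 for this difference.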

How the results depend on the processing

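Of the 490 alternative values of counts and medians, 407 kept their size. Of 281 values of named genes in alternative limma fits, 259 kept their call and none changed direction. Both totals include omissions of arrays outside the comparison, which cannot move its log2 change, and the first includes counts of 0 that stayed 0. They are therefore no measure of robustness. At 30%E the count of genes lower in QKD embryos, 3 as reported, was 5 with dim probe sets left out, with median centring or with a second quantile normalization, and 6 with a variance trend, with the replicate block within each stage or by a t-test named in notes to the study's gene lists at p below 0.05. It was 0 where a log2 change of over 1 or a ratio of linear signals over 2 was required and 0 by that t-test after Benjamini-Hochberg adjustment. The count of higher genes, 2 as reported, was 1 in a fit per stage and 0 under the same 3 rules. The share of all probe sets called also moved: 5.23% were lower with the block within each stage, against 2.92% in the main fit. It was not read for the other settings, so a larger count does not show a stronger lean of the family at 30%E. The median there was -0.17 with median centring and -0.14 with the second quantile normalization, which moved the median of all probe sets by less than 0.1 in every comparison. At 75%E the count of lower genes, 0 as reported, was 1 with dim probe sets left out, median centring, the second quantile normalization, a variance trend or an additive replicate block, 3 with the replicate block within each stage and 6 by the t-test at p below 0.05, and that of higher genes was 1 with the block within each stage or a variance trend. At TB the count of lower genes, 0 as reported, was 1 with dim probe sets left out, the mean over the probe sets of a gene, median centring, a variance trend or the additive block, 2 with the block within each stage and 3 by the t-test, and that of higher genes was 2 by the t-test. The median at TB was 0.053 with dim probe sets left out. Requiring a log2 change of over 1 left 7 of 29 genes that rose and 2 of 5 that fell in WT embryos from 30%E to 75%E, 0 of 12 that rose from 75%E to TB, and, in QKD embryos, 11 of 28 and 2 of 4 in the first interval and 1 of 16 in the second. The median WT change from 30%E to 75%E was 0.47 with the second quantile normalization. Counting all 61 probe sets gave 7 lower in QKD embryos from 30%E to 75%E. For the QKD effect at 75%E minus that at 30%E, the count of lower genes, 1 as reported, was 0 with the mean over probe sets, a variance trend or the change of over 1, and 2 with the block within each stage, and that of higher genes, 0 as reported, was 1 with dim probe sets left out, either scaling or a variance trend, and 3 with the block.

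Leaving out 1 array at a time moved the counts in QKD against WT embryos from 1 to 4 lower and 1 to 2 higher at 30%E, 0 to 1 lower at 75%E and 0 to 1 lower at TB, and the medians from -0.17 to -0.089 at 30%E and from 0.011 to 0.058 at TB. At 75%E the count of 1 came without any TB array, and at TB without either QKD 75%E array. From 75%E to TB the count was 4 to 14 higher and 0 to 1 lower in WT embryos (1 without WT 75%E replicate 2) and 8 to 16 higher in QKD embryos, and for the QKD effect at 75%E minus that at 30%E it was 0 to 1 in both directions, with 1 higher without WT 75%E replicate 2. The causes of these shifts were not tested. Dim genes limit what could be seen: 45 of the 50 genes passed the filter at the 40th percentile of mean signal, and 2 arrays a group limit every error.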

Other observations

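Ribosomal protein genes, another set of highly expressed genes that encode 1 complex, were read beside the family as a list chosen with earlier results known. Of 71 genes, 67 rose in WT embryos from 30%E to 75%E (median log2 change 1.01) and 41 rose from 75%E to TB (0.33), with none falling. Over all probe sets 30.2% and 14.1% rose in these intervals, and 27% and 13.7% fell. At 30%E 70 of the 71 were lower in QKD than in WT embryos in direction and 9 of them by limma, against 55.7% and 2.92% of all probe sets. The median was -0.21 and the lowest value that of rpsa (-0.51). At 75%E and TB none was called and the medians were -0.02 and -0.003.

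Over the 50 proteasome genes, the QKD change at 30%E and the WT change from 75%E to TB share no array. They had a Pearson r of -0.36 and a Spearman rho of -0.38 across genes, and r was 0.06 over all 15502 probe sets. Genes are not independent replicates, so these values are a description.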
